A study of Homo sapiens with 48 samples.

Results

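Gene expression after 48 h of exposure to the low dose of the compound labelled Nnm was compared with that of vehicle-exposed cells in HK-2, a human cell line immortalised from the epithelium of the renal proximal tubule. The comparison rests on 6 of the 48 oligonucleotide arrays of the study: 3 arrays of cells given the low dose and 3 of vehicle controls, which also served the high dose. They were chosen by their titles and paired by biological replicate number. Nnm stands with CsA, Fk and Ra in a group that the study calls Tox 1, one of 3 groups into which it had sorted nephrotoxic compounds. All cells grew in serum-free DMEM and Ham's F12 with EGF, hydrocortisone, insulin, transferrin and selenite, and were exposed near confluence, 24 h after seeding. Nnm is known here by this code only, its doses only as low and high, and the vehicle was not named. High dose arrays at 48 h, and low dose and vehicle arrays at 24 h, 3 each, are used below to set the response beside dose and time.

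The proximal tubule reabsorbs most of what the kidney filters and draws its energy mainly from mitochondrial oxidation, so the respiratory chain, lipid metabolism and stress genes are followed closely in this cell type. Cultured lines keep only part of this programme. Of the 10 defining proximal tubule markers on the array with a usable probe set, 0 exceeded log2 4, the level below which a probe set was treated as not measured, and their mean ran from 2.59 to 2.73 over the low dose arrays and from 2.59 to 2.66 over the vehicle arrays. Leukocyte markers were likewise above that level in 0 of 10 genes. Of 12 fibroblast markers 4 (DCN, LUM, COL1A1 and FBLN1) exceeded it, as did 4 of 12 endothelial and 2 of 10 other nephron markers, and the mean of the fibroblast list was 5.08 to 5.12 in low dose and 5.02 to 5.11 in vehicle arrays. Fewer cells of a kind and less RNA per cell cannot be told apart in these bulk samples, and cell numbers were not measured.

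Replicate 2 stood apart in the size of its differences. The low dose moved 1320 genes by more than 1 on the log2 scale in pair 1, 282 in pair 2 and 1036 in pair 3, out of 11040 genes tested. Over the genes called below, the median size of the difference was 0.83, 0.42 and 0.75 in pairs 1, 2 and 3. The same held at the high dose, where 2287, 415 and 1964 genes passed that size, and at the low dose at 24 h, where 1359, 328 and 1466 did. Across genes, the differences of pairs 1 and 3 correlated at r = 0.84, those of pairs 1 and 2 at 0.63 and those of pairs 2 and 3 at 0.67. Genes are not independent replicates, so these are descriptions. Results are given with all 3 pairs, with values without pair 2 beside them. Pair 2 was chosen for its small differences, so the larger counts without it follow from that choice and add no support.

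**Figure D1:**
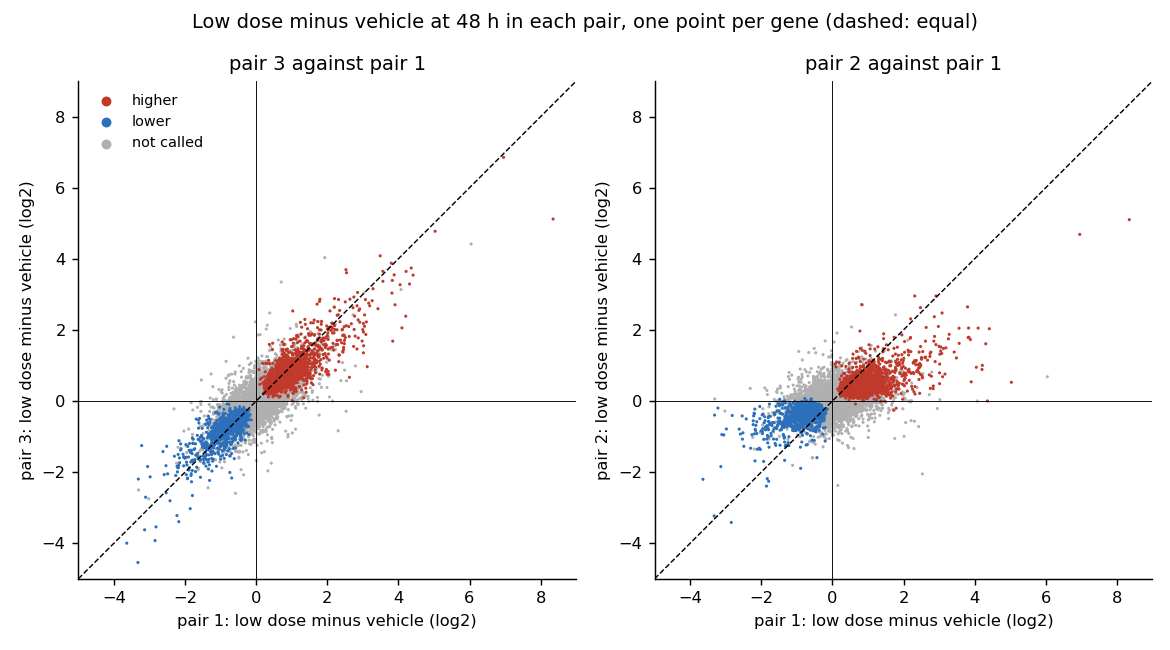
Low dose minus vehicle at 48 h (log2) in pair 3 (left) and pair 2 (right) against pair 1, with 1 point for each of the 11040 genes, coloured by the call over all 3 pairs. Pair 3 follows the dashed line of equality (r = 0.84) while points of pair 2 lie closer to 0. Of the 2367 called genes 2356 kept 1 sign in all 3 pairs, which the call itself favours.

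With the replicate number as a block, 2367 of 11040 genes (21.4%) differed between low dose and vehicle at a Benjamini-Hochberg adjusted p under 0.05 from limma. Of these, 1363 (12.3% of all genes) were higher and 1004 (9.09%) were lower, and 2356 had the same sign in all 3 pairs. The call itself favours genes whose pairs agree. Centring each array on its median gave 1126 higher and 1257 lower, so that 57.6% of the calls were higher as deposited and 47.3% after centring. The median difference over all genes was 0.02 and its median SE 0.17. The 3 low dose arrays did not overlap the 3 vehicle arrays in 1977 of the called genes, against 35.6% of all genes. Without the block 788 genes (7.14%) were called, 492 higher (4.46%) and 296 lower (2.68%), and without replicate 2 there were 4481 (40.6%), 2440 higher (22.1%) and 2041 lower (18.5%). Without replicate 1 or without replicate 3 the call was kept by 3 genes each (0.0272%), so the number of calls depends on both of these replicates. None of these was in a gene list below, and 17.5% and 16.4% of all genes then had an unadjusted p under 0.05. The median of the respiratory chain list was -0.39 and -0.41 without replicates 1 and 3, of the cholesterol list -0.38 and -0.58, of interferon-stimulated genes 0.45 and 0.43, and of mitotic genes 0.45 and 0.35. Differences past 1 on the log2 scale were found in 345 of the higher and 162 of the lower genes, and past 2 in 49 and 12.

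The 2 largest rises, TXNIP and SLC16A14, were of nearly equal size. TXNIP encodes the thioredoxin-interacting protein, an alpha-arrestin that restrains glucose uptake and binds thioredoxin, and its gene answers to glucose metabolites through the MondoA and ChREBP factors. TXNIP read 4.12, 6.56 and 7.00 in vehicle replicates 1, 2 and 3, and 12.47, 11.66 and 12.12 in the low dose replicates. All low dose arrays lay far above all vehicle arrays, and the lowest vehicle array was replicate 1. The difference was 6.19 ± 0.54, or 73.0-fold, with an adjusted p of 0.00018 from limma. Here and below, ± gives the SE from limma, whose spread was estimated over the 18 Nnm arrays with pooling across genes. It is not the SE of the 3 pair differences, which were 8.35, 5.10 and 5.12 for TXNIP. The 2 further probe sets of the gene gave 5.73 and 6.08. Without replicate 1, whose vehicle array was lowest, the difference was 5.11, or 34.5-fold. At 24 h the vehicle arrays of TXNIP read 9.23, 9.71 and 9.01 and the low dose arrays 12.23, 11.76 and 12.21, a difference of 2.75. Treated arrays lay between 11.66 and 12.47 at both times, and the vehicle arrays lay lower at 48 h than at 24 h.

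The related alpha-arrestins were examined after these values were seen. ARRDC4 was 2.71, 2.84 and 2.57 in vehicle, under the level of reliable measurement, and 5.56, 4.52 and 5.62 at the low dose, a difference of 2.53 ± 0.50 (adjusted p = 0.0053, limma). ARRDC3 was 8.98, 9.65 and 9.26 in vehicle and 11.58, 10.87 and 11.36 at the low dose, a difference of 1.97 ± 0.22 (adjusted p = 0.00037, limma). The groups did not overlap for either gene. ARRDC1 (-0.32) and ARRDC2 (-0.26) were not called.

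Sequence before the start of TXNIP and of ARRDC4 is shown because carbohydrate-response elements, which MondoA and ChREBP bind with their partner MLX, consist of a pair of E-box-like sites at a fixed spacing. Both stretches are the 250 bases before a start given by RefSeq on GRCh38.p14, from chr1:145996580-145996829 on the minus strand for TXNIP, the first of 2 starts listed, and from chr15:97960453-97960702 on the plus strand for ARRDC4. Capitals mark a pair of CACGNG sites 5 bases apart in TXNIP and a single CACGTG in ARRDC4, both searched on both strands. A single site is not the paired element, and no pair is marked in ARRDC4. The 250 bases before the second TXNIP start held 0 such pairs. A pair can also take in CACGTG.

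TXNIP: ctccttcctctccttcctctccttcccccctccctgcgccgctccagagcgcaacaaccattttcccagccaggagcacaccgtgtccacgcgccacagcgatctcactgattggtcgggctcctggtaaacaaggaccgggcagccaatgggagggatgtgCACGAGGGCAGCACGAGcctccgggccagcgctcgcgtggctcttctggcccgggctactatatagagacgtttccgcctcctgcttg

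ARRDC4: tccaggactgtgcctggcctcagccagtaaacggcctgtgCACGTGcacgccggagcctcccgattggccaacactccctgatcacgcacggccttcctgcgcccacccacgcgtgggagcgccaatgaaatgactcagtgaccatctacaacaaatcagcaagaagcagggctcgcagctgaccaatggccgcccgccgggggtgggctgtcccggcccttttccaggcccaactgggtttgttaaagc

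The paired motif begins 88 bases before the TXNIP start and was found in 16 of 35116 such stretches (0.0456%). CACGTG begins 210 bases before the ARRDC4 start and is common, in 6.34% of stretches. A match describes letters only, and binding was not measured.

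SLC16A14 is an orphan member of the monocarboxylate carrier family. It read 2.35, 2.50 and 2.52 in vehicle, under the measured level, and 9.31, 7.19 and 9.37 at the low dose. The groups were separated in every pair by more than 4 log2 units. The difference was 6.16 ± 0.53 (adjusted p = 0.00018, limma), and its size is uncertain because the vehicle level was below log2 4, so that it cannot be ranked against that of TXNIP. Without replicate 1 it was 5.77. SLC16A9, another carrier of the family, was 2.27, 2.28 and 2.28 in vehicle and 6.49, 3.28 and 5.93 at the low dose.

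Among the 10 largest rises were also genes of signalling and membrane transport. SHISA2, an endoplasmic reticulum protein that holds back receptors of the Wnt and FGF pathways, was 3.81, 3.76 and 3.39 in vehicle and 7.61, 6.41 and 7.27 at the low dose (3.44 ± 0.28, adjusted p = 0.00018, limma). RSPO3, a secreted amplifier of Wnt signalling, was 5.54, 5.37 and 5.27 against 9.42, 7.10 and 8.82 (3.05 ± 0.55, adjusted p = 0.0035, limma). SLC44A2, a choline transporter, was 6.93, 6.30 and 6.81 against 10.50, 8.35 and 10.46 (3.09 ± 0.32, adjusted p = 0.00032, limma). In these 3 genes the lowest treated array was replicate 2. GAS1, a cell surface protein induced in growth arrest, rose by 3.07, CYYR1 by 3.09 and NEGR1, a neuronal adhesion protein, by 3.33. Another probe set of NEGR1 gave 1.15 and was not called. DHRS2, a mitochondrial and nuclear dehydrogenase, rested on replicates 1 and 3: it was 3.54, 3.53 and 3.31 in vehicle and 8.57, 4.06 and 8.09 at the low dose.

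The largest fall was that of KRT20, a keratin of differentiated epithelia. It read 8.15, 9.10 and 8.97 in vehicle and 4.83, 5.87 and 4.43 at the low dose, a difference of -3.70 ± 0.41 (adjusted p = 0.0004, limma), or 13-fold lower. UCA1, a long non-coding RNA first described in urothelial carcinoma, read 6.24, 7.00 and 8.34 in vehicle and 3.40, 3.58 and 4.41 at the low dose (-3.39 ± 0.34, adjusted p = 0.0003, limma). Neither gene's groups overlapped. COL4A3, a chain of type IV collagen of the glomerular and tubular basement membranes, was 4.32, 5.80 and 5.52 in vehicle and 2.46, 3.40 and 2.49 at the low dose (-2.43 ± 0.35), the latter below the measured level. CHI3L1, a secreted chitinase-like protein, was 8.77, 8.85 and 9.28 against 6.98, 6.60 and 6.62 (-2.24 ± 0.35, adjusted p = 0.0017, limma). CCND2, the D-type cyclin that drives entry into S phase, was 10.50, 10.04 and 10.76 against 7.39, 9.10 and 8.05 (-2.25 ± 0.36, adjusted p = 0.0021, limma). The other large falls were CCDC146 (-3.28), LINC01111 (-2.87), ZBED10P (-2.42), ZFHX4-AS1 (-2.25) and LINC00472 (-2.06), of which the last 4 are non-coding or pseudogene transcripts.

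Of these 20 genes, 19 had groups that did not overlap, against 35.6% of all genes, and pair 2 had the smallest difference in 17. The model without the block called 15 (7 higher, 8 lower), against 7.14% of all genes. The 20 genes were picked as the largest called differences with the same sign in all pairs. Their separation and calls therefore largely follow from that choice and add no support. DHRS2, NEGR1, SLC16A9, ZFHX4-AS1 and LINC00472 were the 5 of the 20 not called without the block. A vehicle mean under log2 4 was found for 6 of them and a low dose mean under it for 4. Another probe set was lacking for 11.

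**Figure D2:**
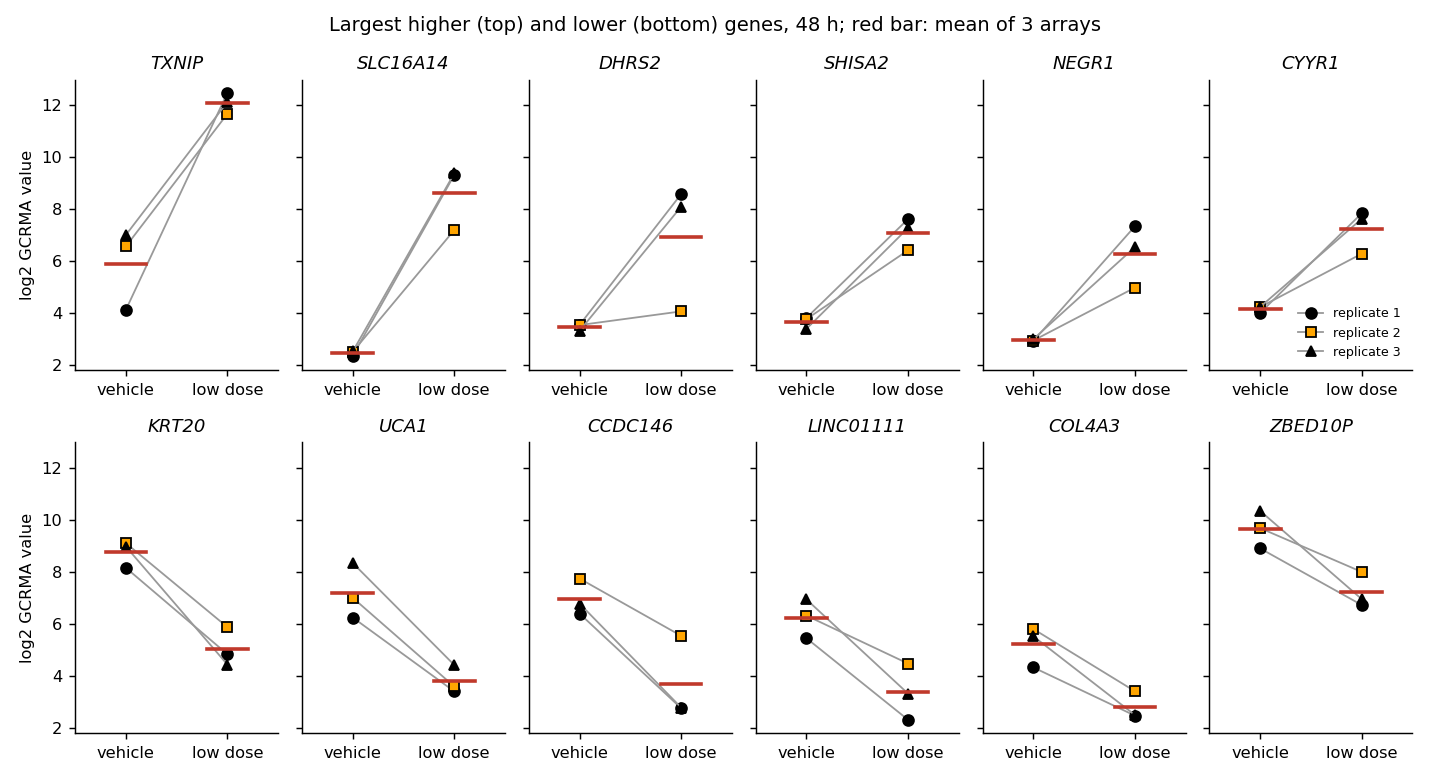
Log2 GCRMA values of the 6 largest rises (top) and 6 largest falls (bottom) in the 3 vehicle and 3 low dose arrays at 48 h, with lines joining arrays of the same replicate number and red bars at the means. Replicate 2 (orange squares) ends nearest its vehicle level in most panels, as in DHRS2, where it read 4.06 against 8.57 and 8.09.

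Most genes of the respiratory chain list were called lower. The electron transport chain passes electrons from NADH and succinate to oxygen through complexes I to IV, and ATP synthase uses the resulting proton gradient. Of 23 measured genes of the respiratory chain list 17 fell and 0 rose, the list median was -0.44, and all 23 differences were negative, against 9.09% of all genes falling and a median of 0.02. Without the block 9 fell, and without replicate 2 there were 20 with a median of -0.55. ATP5MC1, a proton-carrying subunit of ATP synthase, was 9.42, 9.54 and 9.61 in vehicle and 7.65, 8.88 and 8.43 at the low dose (-1.20 ± 0.20, adjusted p = 0.0023, limma). NDUFS1, the largest subunit of complex I, was 11.15, 11.34 and 11.32 against 10.13, 10.67 and 10.23 (-0.93 ± 0.15, adjusted p = 0.0019, limma), though another of its probe sets gave 0.02. ATP5F1B, the catalytic subunit of ATP synthase, fell by 0.92, SDHA of complex II by 0.89, and CYC1 and UQCRC1 of complex III by 0.78 and 0.67. The called genes of complex IV were COX5A (-0.42) and COX4I1 (-0.28).

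Steps that feed the chain showed the same direction. Pyruvate dehydrogenase and citric acid cycle genes, a group assembled after values were seen, were lower in 15 of 21, with a median of -0.49 and 21 negative differences, against 9.09% of all genes lower. Without the block 6 were lower, and without replicate 2 their median was -0.61. PDHA1, the catalytic subunit of pyruvate dehydrogenase, was 11.77, 11.74 and 11.78 in vehicle and 10.55, 11.09 and 10.58 at the low dose (-1.02 ± 0.15, adjusted p = 0.0016, limma). DLAT (-0.95), SUCLG2 (-0.87), DLST (-0.77), OGDH (-0.74) and IDH3B (-0.71) fell as well. Kinases that switch pyruvate dehydrogenase off moved in opposite directions. PDK1 read 8.97, 8.99 and 9.13 in vehicle and 7.24, 8.01 and 7.48 at the low dose (-1.45 ± 0.20, adjusted p = 0.001, limma), whereas PDK4 read 12.56, 12.96 and 12.91 against 14.14, 13.52 and 13.87 (1.03 ± 0.24, adjusted p = 0.012, limma). Fatty acid oxidation genes fell in 6 of 19 (31.6%, median -0.33), against 9.09% of all genes, among them ETFB and ACADM (-0.70 and -0.57). PDK4, which that list also holds, was the 1 that rose. Without the block 1 fell and 1 rose, and neither ETFB nor ACADM was called. Without replicate 2 there were 11 lower and 3 higher, against 18.5% and 22.1% of all genes. Of 28 genes of hypoxia and glycolysis 9 fell (32.1%) and 2 rose (7.14%), against 9.09% and 12.3% of all genes. Without the block 4 fell and 1 rose, and without replicate 2 there were 10 lower and 6 higher. The 9 falls with all replicates were mostly glycolytic enzymes: PFKP (-0.73), PGAM1 (-0.68), TPI1 (-0.65), PGK1 (-0.61), GPI (-0.58), HK1 (-0.53), ALDOA (-0.36) and ENO1 (-0.35), beside PDK1. CA12, a carbonic anhydrase at the cell surface, rose from 10.07, 9.55 and 8.55 to 12.61, 10.94 and 12.16 (2.51 ± 0.52, adjusted p = 0.0067, limma), and PFKFB3, a regulator of glycolysis, by 0.63.

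Among lipid synthesis genes, 9 of 17 in the cholesterol list and 6 of 16 in the fatty acid list fell, against 9.09% of all genes, and the other 8 and 10 were not called. Cells make cholesterol through the mevalonate pathway, whose genes are switched on by SREBP factors when sterol runs low. The cholesterol list had a median of -0.56, with 16 negative differences and 0 genes higher. Without the block 1 fell, and without replicate 2 there were 12 (median -0.66). MVD, which makes isopentenyl diphosphate, was 6.64, 4.92 and 6.71 in vehicle and 4.53, 3.57 and 5.37 at the low dose (-1.60 ± 0.41, adjusted p = 0.017, limma), so that the arrays overlapped between groups while each pair fell. ACAT2 fell by 1.32, TM7SF2 by 1.30, NSDHL by 0.80, LSS by 0.79 and INSIG1, the sterol sensor's partner, by 0.58. Of the fatty acid and glycerolipid synthesis list, 0 were higher and 3 fell without the block. FASN, the fatty acid synthase, was 9.91, 9.25 and 9.86 in vehicle and 8.48, 8.45 and 8.60 at the low dose (-1.17 ± 0.20, adjusted p = 0.0031, limma). ACSS2 (-0.96), SREBF1, which encodes SREBP-1 (-0.83), ACSL1 (-0.79), ACLY (-0.51) and ACACA (-0.38) were the others.

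Genes for making and clearing proteins were lower in part. Ribosome biogenesis and nucleolar genes fell in 7 of 22 (31.8%) with 0 higher (median -0.41), against 9.09% of all genes lower. Without the block 4 fell, and without replicate 2 there were 11, against 2.68% and 18.5% of all genes. UTP4, a factor of small subunit processing, fell by 0.94, NOP16 by 0.63 and NOP2 by 0.58. MYC, which drives this programme, was 12.92, 12.59 and 12.51 in vehicle and 11.77, 12.10 and 12.18 at the low dose (-0.65 ± 0.17, adjusted p = 0.017, limma). Of 26 ER chaperones and ER-associated degradation genes 6 fell (23.1%), among them SDF2L1 (-1.36), CRELD2 (-0.87) and CALR (-0.84), and ERO1A rose by 0.66. HSPA5, the main ER chaperone, was -0.52 ± 0.22 and was not called (adjusted p = 0.10, limma). ATF4 and CHOP targets of the stress response were called in 2 of 29, both lower, VLDLR (-0.93) and SLC7A1 (-0.57). That share, 6.9%, was below the 9.09% of all genes. The list median was -0.09, or 0.08 without replicate 2. DDIT3, which encodes CHOP, was not called at -0.14.

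Other families of this kind were assembled after values were seen. Proteasome subunits fell in 20 of 41 (48.8%, median -0.30), against 9.09% of all genes, and in 5 without the block, with PSMA3 (-0.82) lowest. PSMB9, a subunit of the interferon-induced immunoproteasome, was the 1 that rose, from 7.44, 7.68 and 7.62 to 8.70, 8.49 and 8.93 (1.13 ± 0.24, adjusted p = 0.0071, limma). Mitochondrial ribosomal proteins fell in 21 of 72 with 0 higher (median -0.24) and in 6 without the block, whereas cytosolic ribosomal proteins fell in 0 of 56 (median 0.04) and rose in 1, RPL39L.

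Of the zinc finger genes, 32.2% were called higher, against 12.3% of all genes. Most human genes with a ZNF symbol encode DNA-binding repressors with many C2H2 fingers, and many of these lie in clusters on chromosome 19. Of 320 measured, a family also picked after values were seen, 103 rose and 2 fell (46 and 1 without the block), with a median of 0.29 and 252 positive differences. The pair medians were 0.37, 0.24 and 0.33. On chromosome 19 there were 72 of 159 higher (45.3%, median 0.56), against 31 of 161 (19.3%, median 0.17) elsewhere. Other genes of chromosome 19 were higher in 33 of 612 (5.39%) and lower in 87 (14.2%). Other genes with a vehicle level in the middle 50% of the ZNF genes, from 5.65 to 7.92, were higher in 13.5% of 2893. ZNF709 read 4.34, 4.70 and 4.15 in vehicle and 6.69, 5.84 and 6.38 at the low dose (1.91 ± 0.20, adjusted p = 0.00032, limma). ZNF114 moved the other way, from 8.58, 8.59 and 9.03 to 7.27, 7.32 and 7.24. Members of a cluster are similar in sequence, so probe sets may read more than 1 of them, which was not tested.

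**Figure D3:**
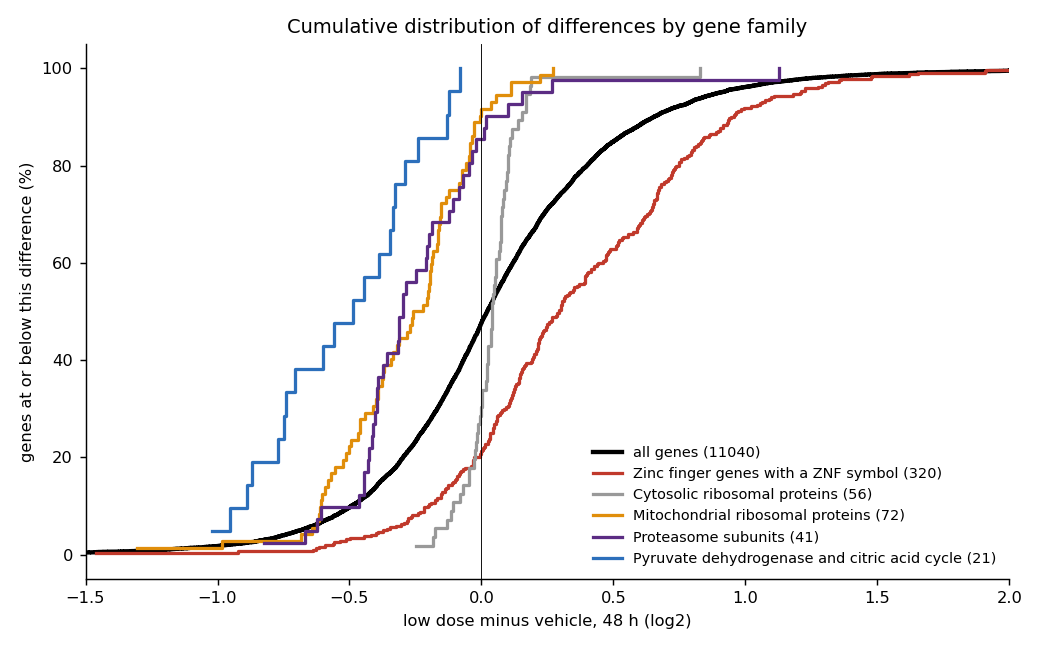
Cumulative share of genes (percent) at or below each low dose minus vehicle difference (log2, 48 h) for all 11040 genes and 5 families picked after values were seen. The ZNF curve lies to the right (median 0.29), proteasome, mitochondrial ribosome and citric acid cycle curves to the left (medians -0.30, -0.24 and -0.49), and the cytosolic ribosome curve rises steeply near 0 (median 0.04).

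Of the interferon-stimulated genes, 8 of 22 rose and 14 were not called, against 12.3% of all genes higher. These genes answer to interferons, and many encode antiviral proteins. The list median was 0.51 and 0 fell, 5 rose without the block and 14 without replicate 2, where 1 fell. Those that rose were OASL, IFIT2, IFIT1, HERC5, IFI44, IFI44L, IRF9 and SAMD9. OASL, which boosts RNA sensing by RIG-I, was 4.34, 5.77 and 5.07 in vehicle and 7.06, 6.50 and 7.69 at the low dose (2.03 ± 0.34, adjusted p = 0.0028, limma). IFIT1, which binds foreign RNA, was 7.74, 8.90 and 8.37 against 9.56, 9.42 and 9.84 (1.27 ± 0.23, adjusted p = 0.0037, limma). IFIT2 rose by 1.46. The treated arrays lay above all vehicle arrays in these 3 genes, and vehicle replicate 1 was lowest in each.

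The 250 bases before the IFIT1 start are shown because they hold the interferon-response core. They lie at chr10:89392373-89392622 on the plus strand of GRCh38.p14, from RefSeq, and capitals mark GAAA followed by GAAA after 2 bases on either strand, which here appears as its reverse complement.

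IFIT1: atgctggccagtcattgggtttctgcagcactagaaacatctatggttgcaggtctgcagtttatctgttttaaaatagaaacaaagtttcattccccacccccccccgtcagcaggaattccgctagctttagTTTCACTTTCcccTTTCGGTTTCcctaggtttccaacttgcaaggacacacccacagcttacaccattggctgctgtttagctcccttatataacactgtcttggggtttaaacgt

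Its 2 matches begin 116 and 103 bases before the start. The core was found in 3.02% of all such stretches and in 12 of the 18 measured interferon-stimulated genes that had a stretch listed: 5 of the 6 that rose and 7 of the 12 not called.

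Of the genes of cell division, 8 of 30 in the G2 and mitosis list and 5 of 31 in the DNA replication list rose, against 12.3% of all genes, and the replication share was near that of all genes. The G2 and mitosis list holds the cyclins, kinases and spindle proteins that peak before division. In it 0 fell and 22 were not called, all 30 differences were positive, and the median was 0.45. Without the block 2 rose, and without replicate 2 there were 15 (median 0.58), against 4.46% and 22.1% of all genes. NEK2, a centrosome kinase, was 9.80, 9.73 and 9.80 in vehicle and 11.05, 10.41 and 11.17 at the low dose (1.10 ± 0.23, adjusted p = 0.0071, limma). TOP2A, the topoisomerase that untangles chromosomes, was 11.48, 11.71 and 11.68 against 12.40, 12.23 and 12.70 (0.82 ± 0.15, adjusted p = 0.0033, limma). CCNA2 (0.92), AURKB (0.81), CENPA (0.81), KIF11 (0.73), TTK (0.70) and CDC20 (0.69) also rose, while PLK1 and AURKA were not called at 0.01 and 0.07. Of the DNA replication genes 0 fell (median 0.22), 1 rose without the block and 13 without replicate 2. The 5 that rose were the origin-licensing genes ORC1 (1.15) and CDT1 (1.10), MCM10 (1.04), GINS3 (0.55) and RFC3 (0.39). Of 27 repair genes BLM (0.84), CHEK2 (0.78), BRCA1 (0.63) and CHEK1 (0.57) rose and 0 fell, though the list median was -0.10. That share, 14.8%, was near the 12.3% of all genes. Without the block 0 repair genes were called, against 7.14% of all genes. Without replicate 2 there were 9 higher and 6 lower, against 22.1% and 18.5% of all genes. Histone genes, whose transcripts lack the poly(A) tail in replicating cells, fell in 4 of 7, against 9.09% of all genes. These were H2BC12 (-1.37), H1-2 (-0.96), H2BC6 (-0.74) and H2BC5 (-0.45). Histone copies are near-identical, so their probe sets are not specific to 1 copy.

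The p53 targets showed no common direction, with 3 of 25 higher (DDB2 0.96, PERP 0.54, FAS 0.48) and 2 lower (TP53INP1 -1.0, ZMAT3 -0.68). These shares, 12% and 8%, were near those of all genes, 12.3% and 9.09%. CDKN1A, the p21 inhibitor, was not called at -0.64 ± 0.30 (adjusted p = 0.14, limma), nor was MDM2 at 0.05.

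NRF2 targets, which answer to electrophiles and oxidants, rose in 6 of 21 (28.6%) and fell in 1 (median 0.28), against 12.3% of all genes higher. Without the block 1 was higher, against 4.46% of all genes, and without replicate 2 there were 11, against 22.1%. NQO1, a quinone reductase, was 10.33, 10.45 and 10.63 in vehicle and 11.69, 10.92 and 11.84 at the low dose (1.01 ± 0.22, adjusted p = 0.0085, limma). TXNRD1, the thioredoxin reductase, rose by 1.20, while TXN, its substrate, fell by 0.36. AKR1C1, AKR1C2 and AKR1C3 rose by 0.92, 0.76 and 0.88, but these copies are too alike for separate probe sets to be certain. HMOX1, heme oxygenase, was not called at 0.22 ± 0.75. The metallothioneins were called in 0 of 9 genes and heat shock genes in 1 of 15, DNAJB1 (0.59), against 21.4% of all genes.

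Kidney injury markers were called higher in 4 of 25 (16%) and lower in 4 (16%), against 12.3% and 9.09% of all genes. CLU, a secreted chaperone used as a tubular injury marker, was 13.45, 13.12 and 13.07 in vehicle and 14.01, 13.63 and 13.81 at the low dose (0.60 ± 0.11, adjusted p = 0.0031, limma). IL18 (0.80), CST3 (0.52) and TIMP1 (0.39) rose, and ICAM1 (-0.95), GPNMB (-0.79), KRT8 (-0.69) and ANXA2 (-0.48) fell. HAVCR1, which encodes KIM-1, read 11.03, 11.27 and 11.27 in vehicle and 10.54, 11.29 and 10.90 at the low dose and was not called (-0.28 ± 0.24, adjusted p = 0.43, limma). LCN2 (NGAL) did not exceed the measured level, with means of 3.65 in vehicle and 3.52 at the low dose.

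Of 12 measured genes of proximal tubule transport and the brush border, 4 rose (33.3%) and 2 fell (16.7%), against 12.3% and 9.09% of all genes. DPP4, a brush border peptidase, was 11.57, 11.93 and 11.52 in vehicle and 12.90, 12.83 and 12.81 at the low dose (1.18 ± 0.17, adjusted p = 0.0014, limma). SLC2A2, the basolateral glucose transporter GLUT2, was 2.77, 2.68 and 2.64, below the measured level, against 5.08, 5.63 and 5.50 (2.71 ± 0.69, adjusted p = 0.017, limma). CDH2 (0.69) and PAX8 (0.62) rose, and SLC4A4, the basolateral bicarbonate carrier, fell by 0.98 and EZR by 0.38. In this list DPP4 kept its call without the block.

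The remaining lists had calls in both directions, beside 12.3% of all genes higher and 9.09% lower. Higher and lower shares were 20% and 10% (drug genes), 22.7% and 13.6% (matrix genes) and 20.8% and 4.17% (immediate early genes). For cytokine genes they were 5.26% and 15.8%, for apoptosis genes 15.4% and 11.5%, and for lysosomal genes 8% and 4%. Among drug and xenobiotic genes 4 of 20 rose, ALDH1A3 (1.56), CYP1B1 (1.38), CYP24A1 (0.65) and ABCC5 (0.48), and TIPARP (-1.29) and GSTP1 (-0.59) fell. CYP1B1 and TIPARP are both targets of the aryl hydrocarbon receptor. ABCB1, the P-glycoprotein efflux pump, was not called at -0.05. Matrix and TGF-beta genes were higher in 5 of 22 and lower in 3: LAMB3 rose by 2.00, and THBS1 (-0.92), COL4A1 (-0.74) and COL4A2 (-0.56) fell. Immediate early genes rose in 5 of 24, IER3 (1.09), DUSP1 (0.91), JUNB (0.73), JUN (0.71) and FOSL2 (0.63), and MYC, given above, fell. Without the block DUSP1 was higher and MYC lower. Of 19 cytokine and NF-kB genes CCL2 (-1.56), ICAM1 (-0.95) and IL32 (-0.76) fell and NFKBIA, the inhibitor of NF-kB, rose (0.87). Apoptosis genes were called in 7 of 26: TNFSF10, the death ligand TRAIL (0.97), APAF1 (0.74), FAS and BIRC2 (0.39) rose, and CYCS (-0.65), BAK1 (-0.58) and BCL2L1 (-0.55) fell. In the lysosome list CTSL (0.93) and CTSB (0.85) rose and ATP6V0D1 (-0.50) fell, of 25.

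**Figure D4:**
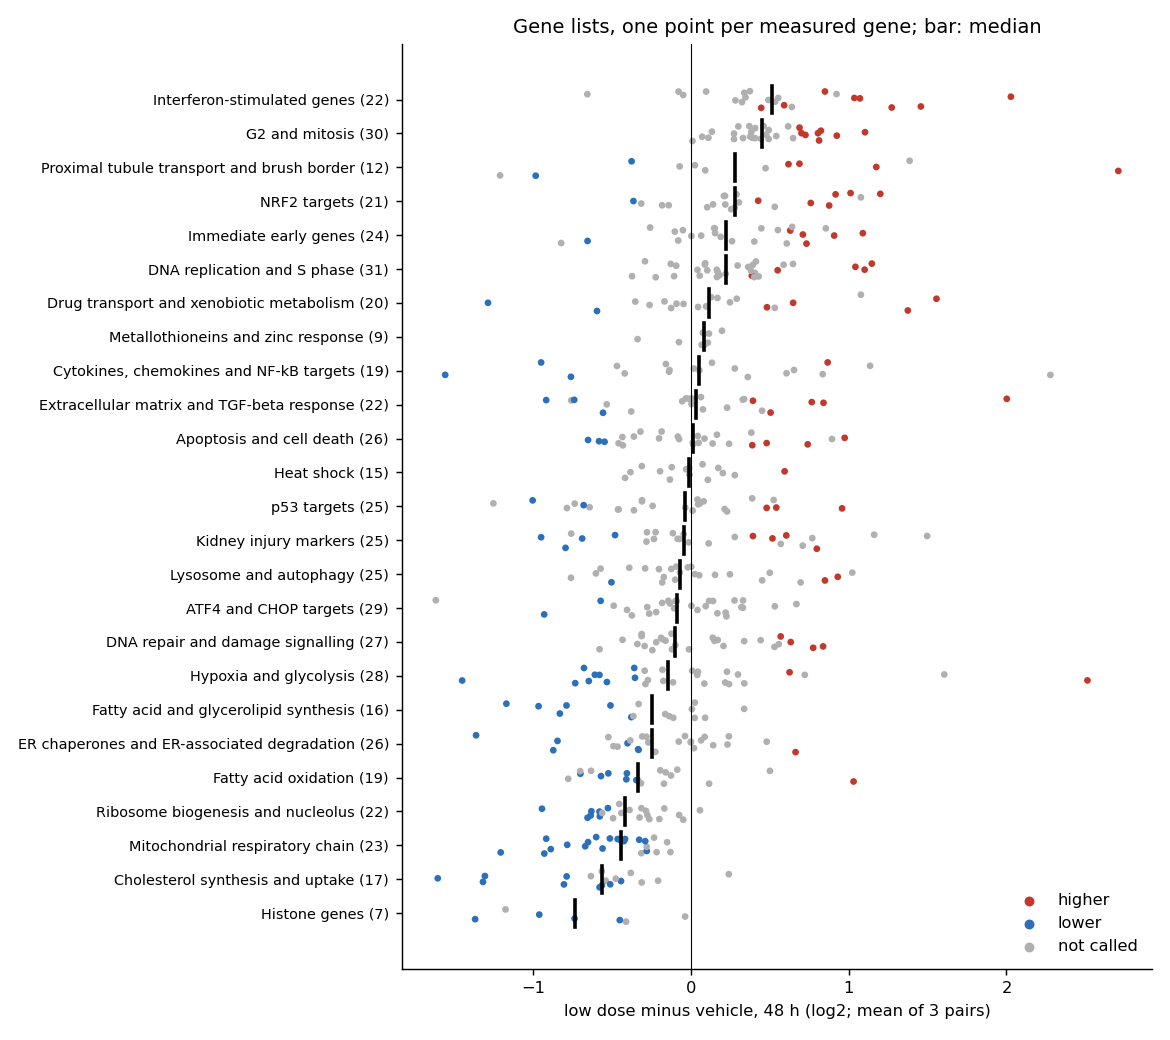
Low dose minus vehicle difference at 48 h (log2, mean of 3 pairs) of each measured gene in 25 lists, with the number of genes in parentheses, a bar at the median and colours by call. Histone, cholesterol and respiratory chain lists lie lowest (medians -0.74, -0.56 and -0.44), and interferon-stimulated and mitotic genes highest (0.51 and 0.45).

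Dose was examined by comparing high with low dose arrays at 48 h directly, which needs no controls. With all 3 replicates 0 of 11040 genes were called (lowest adjusted p = 0.51, limma), and 1065 (9.65%) had an unadjusted p under 0.05, 526 higher (4.76%) and 539 lower (4.88%). Without replicate 2 there were 1863 calls (16.9%), 951 higher (8.61%) and 912 lower (8.26%) at the high dose. Both low dose and high dose comparisons with vehicle use the same control arrays, and against these the high dose gave 4047 calls (36.7%).

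All 30 mitotic genes had lower means at the high dose than at the low dose, by a median of 0.62, and 29 had an unadjusted p under 0.05, against 4.88% of all genes lower at that level. Without replicate 2, 29 of 30 were called lower, against 8.26% of all genes, and with all replicates 0 passed adjustment. TOP2A differed from vehicle by 0.39 at the high dose and 0.82 at the low dose, NEK2 by 0.52 and 1.10, and CCNA2 by 0.30 and 0.92. The ATF4 and CHOP targets stood the other way, with 27 of 29 higher at the high dose (median 0.55), 5 at an unadjusted p under 0.05, and 14 called without replicate 2. Their median difference from vehicle was -0.09 at the low and 0.58 at the high dose. Lysosomal genes were higher at the high dose in 23 of 25 (median 0.17), 3 at an unadjusted p under 0.05, and heat shock genes in 15 of 15 (median 0.18), 0 at that level. Without replicate 2, 9 and 4 of these were called. Respiratory chain genes differed by a median of -0.12, with 1 at an unadjusted p under 0.05. Of the largest changes at the low dose, TXNIP (6.38), SLC16A14 (6.43), KRT20 (-3.51) and UCA1 (-3.66) were near the same size at the high dose. Some others were larger there, as RSPO3 (4.04 against 3.05) and ZFHX4-AS1 (-3.12 against -2.25). Some were smaller, as LINC01111 (-2.30 against -2.87) and COL4A3 (-2.04 against -2.43). For LINC01111, COL4A3 and UCA1 the means at both doses were under log2 4, so their sizes cannot be ranked between doses. With all replicates no such dose difference passed adjustment. For SLC2A2 the difference from vehicle was 1.34 at the high dose, and high minus low was -1.37 (adjusted p = 0.53, limma) and -2.33 without replicate 2 (adjusted p = 0.0058, limma).

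Time was examined by testing whether the low dose effect differed between 48 h and 24 h, each against its own vehicle arrays. With all replicates 0 of 11040 genes were called (lowest adjusted p = 0.30, limma), while 905 (8.2%) had an unadjusted p under 0.05, 548 higher (4.96%) and 357 lower (3.23%). Without replicate 2 there were 354 calls (3.21%), 215 higher (1.95%) and 139 lower (1.26%). The low dose at 24 h gave 3009 calls (27.3%). Of the genes called at 48 h, 1453 were called in the same direction at 24 h, 61.4% of the 48 h calls and 48.3% of the 24 h calls, and 2258 had the same sign. Across all genes the 2 effects correlated at r = 0.78 (Spearman rho = 0.75), as a description over genes. Of the 20 largest, 18 were also called at 24 h, the exceptions being COL4A3 (-0.10 at 24 h) and CHI3L1 (-0.63). At 24 h the COL4A3 means were 3.04 in vehicle and 2.94 at the low dose. Both are under log2 4, so a fall could hardly have been read there.

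The effect of the low dose on division genes differed between the times mainly in the vehicle arrays. From 24 h to 48 h the mitotic genes changed by a median of -0.61 in vehicle, where 30 of 30 were lower at 48 h, and of 0.12 in low dose arrays. Replication genes changed by -0.42 in vehicle, with 29 of 31 lower, and by -0.04 in low dose arrays, while the medians of all genes were -0.02 and -0.01. MCM10, for one, had a mean of 8.40 at 24 h and 7.04 at 48 h in vehicle, and of 8.04 and 8.08 at the low dose. All 30 mitotic genes had a higher effect at 48 h than at 24 h, by a median of 0.68, with 16 at an unadjusted p under 0.05 and 9 called without replicate 2. At 24 h the list median was -0.26, with 0 higher and 2 lower. All 31 replication genes were likewise above their 24 h effect (median 0.46), 9 at an unadjusted p under 0.05 and 7 called without replicate 2. The ATF4 and CHOP targets had a median of 0.43 at 24 h and -0.09 at 48 h, NRF2 targets 0.74 and 0.28, and ribosome biogenesis genes -0.66 and -0.41.

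**Figure D5:**
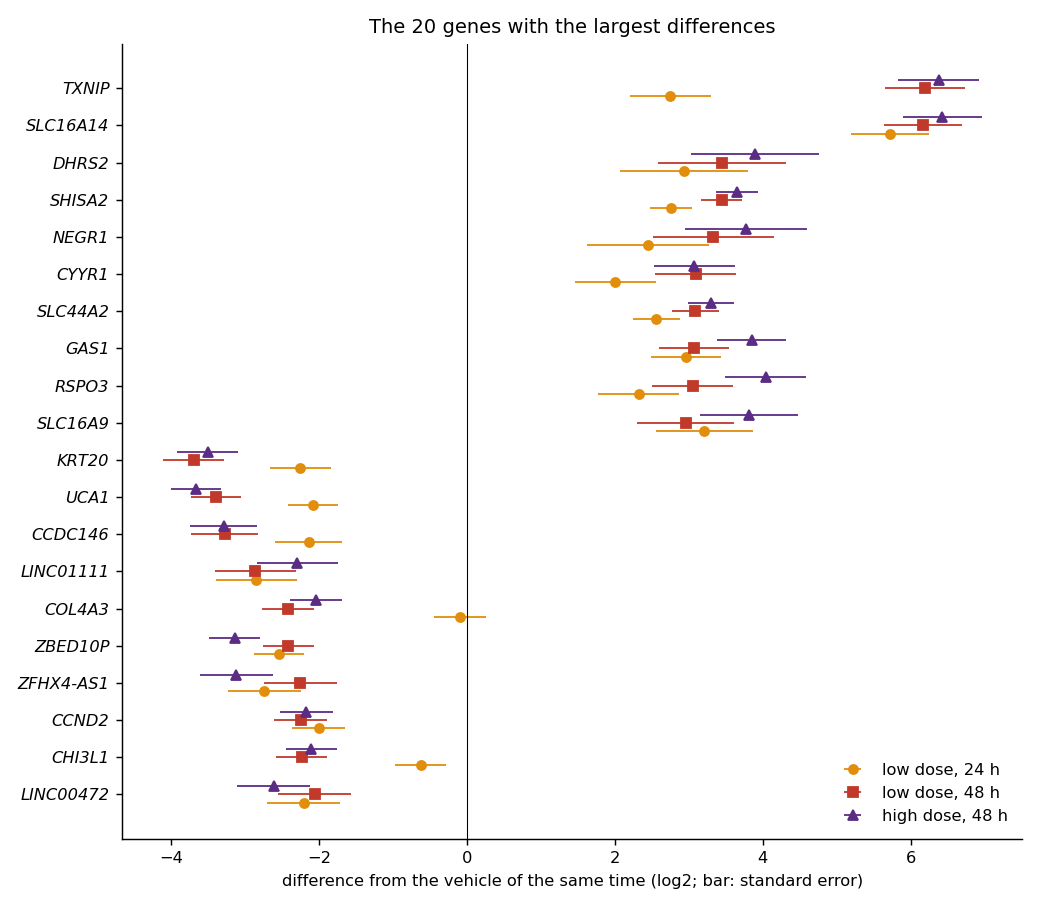
Difference from the vehicle arrays of the same time (log2, with its standard error) for the 20 genes with the largest low dose differences at 48 h, at low dose 24 h, low dose 48 h and high dose 48 h. The high dose at 48 h shares its controls with the low dose. TXNIP was 2.75 at 24 h against 6.19 and 6.38 at 48 h. COL4A3 was -0.10 at 24 h, where the means of both groups were under log2 4.

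The other compounds of the study at 48 h were set beside these genes, each against its own controls, as values with no test. By sign alone, 19 of the 20 largest genes matched Nnm low dose in Ra, 17 in Fk and 12 in CsA. Of all genes, 54.2%, 56.3% and 48.1% had the same sign. Size was not counted, and some matches were near 0, as GAS1 (0.03), NEGR1 (0.06) and SLC44A2 (0.07) in Ra. Fk and Ra share their controls, and the median of all genes was -0.18 in Ra, whose replicate 2 array had an upper quartile of 6.20, against 7.11 to 7.24 in the Nnm arrays. TXNIP differed by 2.20 in Ra, 0.65 in Fk and -0.23 in CsA. SLC16A14 differed by 1.92 in Ra, 2.67 in Fk and -0.04 in CsA. KRT20 was lower in all 3, at -1.98, -1.31 and -1.46. The ZNF genes had medians of 0.02 in CsA, -0.03 in Fk and -0.30 in Ra, and citric acid cycle genes -0.06, -0.07 and -0.19. Over all genes the Nnm low dose differences correlated with those of Fk at r = 0.26, of Ra at 0.17 and of CsA at -0.06, as descriptions over genes.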

How the data were processed

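The authors deposited log2 values for 54675 probe sets on each of 48 arrays. The submitters' processing notes name GCRMA, with no version, and the values were used as they stand. Probe sets with exactly 1 gene symbol in the platform annotation (41091) were kept, while 1801 with several, 11721 not listed and 62 controls were not. A probe set had to exceed log2 4 in at least 3 of the 18 Nnm arrays, as 20134 did, and the brightest probe set stood for each of 11040 genes. A linear model with a mean for each of the 6 Nnm groups and the replicate number as a block was fitted with limma 3.58.1 in R 4.3.3 and tested two-sided, with p-values adjusted over all genes. The script was tested on simulated data. With probe sets tested singly, 17 genes had calls in opposite directions.

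The labels number biological replicates 1 to 3 in each group. Deviations from the group means correlated above 0.1 in all 45 same-numbered pairs of Nnm arrays (0.14 to 0.79, mean 0.45), so the numbers were taken to pair the arrays. The mean between other numbers was -0.21. Deviations within a group sum to 0, so this value largely follows from the first and is no separate support. Nothing says whether cultures were separate, and p-values measure the spread between these arrays, whose number limits the precision.

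The members, lists and tests were chosen with earlier results of these data known. Named genes were the 10 largest called rises and falls with 1 sign in all pairs, up to 3 called genes per list by size, and always HAVCR1, LCN2, CLU, GDF15 (not called at -0.46), HMOX1, CDKN1A, MDM2, DDIT3, HSPA5 and ABCB1. Other genes were named after their values were seen. Alternatives varied the block, the arrays fitted, the normalization, the filter, the probe set choice, the variance model and the replicates.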

Additional observations from a re-analysis of the deposited data

Results flagged for a closer look

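The effect of the low dose on MCM10, a replication initiation factor, was 1.04 at 48 h and -0.35 at 24 h. It drew attention because all 3 pairs rose at 48 h and all 3 fell at 24 h. The difference of the effects was 1.40 with an adjusted p of 0.38 from limma, so it did not pass. At 48 h MCM10 was 6.62, 6.86 and 7.64 in vehicle and 8.14, 7.60 and 8.51 at the low dose, and 2 other probe sets gave 0.48 and 0.54. At 24 h it was 8.18, 8.38 and 8.63 in vehicle and 7.47, 8.30 and 8.35 at the low dose. The vehicle mean was thus 8.40 at 24 h and 7.04 at 48 h, while the low dose mean was 8.04 and 8.08.

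Probe sets left out of the gene table also carried differences. Of 970 with several symbols that passed the filter 121 (12.5%) were called by the same model. Of 1922 that passed but were not listed in the annotation 234 (12.2%) were called. Every such probe set was counted, with p-values adjusted apart from those of the genes. The 21.4% of genes, each read by its brightest probe set, is therefore not a like share.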

How the results depend on the processing

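For Nnm low dose 48 h against vehicle (2367 calls), 788 genes were called with no replicate block, and all 788 were among the main calls. All 48 arrays with the replicate block within sets gave 1495, all 48 arrays with no replicate block 591, and the compared groups alone with the block 1424. Leaving out a replicate number gave 3 (replicate 1), 4481 (replicate 2) and 3 (replicate 3), and leaving out single arrays 781 to 2581, so the leave-outs ranged from 3 to 4481. The cause of these moves was not tested. Quantile normalization, centring, filters, probe set means and a variance trend gave 1887 to 2504. For Nnm high against low dose 48 h (0 calls), all 48 arrays with the block gave 3, no filter on low values gave 2 (lowest and highest over left-out replicates 0 and 1863, with 395 without the high dose array of replicate 2). For Nnm low dose effect 48 h against 24 h (0 calls) the left-out replicates gave 0 to 354. Of the 98 named and measured genes 90 were called, 43 of these without the block, and 0 kept the call in every leave-out; 0 called genes changed sign. Uncalled genes that did were ABCB1 low 48 h minus vehicle (-0.189 to 0.227 over leave-outs: 0.227 without replicate 1, 0.072 without the low dose array and 0.164 without the vehicle array of replicate 1), DDIT3 low 48 h minus vehicle (-0.697 to 0.166: 0.166 without replicate 1, 0.130 and 0.138 without the vehicle arrays of replicates 1 and 2), HMOX1 low 48 h minus vehicle (-0.280 to 0.771: -0.280 without the low dose array of replicate 2, -0.182 without the vehicle array of replicate 1) and MDM2 low 48 h minus vehicle (-0.008 to 0.109 over leave-outs: -0.004 with centred arrays, -0.008 without the vehicle array of replicate 1). GCRMA compresses low signals, so 111 called genes with a group mean under log2 4 have uncertain sizes.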

Other observations

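Further families were assembled after values were seen and are given without a test, beside 9.09% of all genes called lower and 12.3% higher. The 3 D-type cyclins were all lower, CCND2 by 2.25, CCND1 by 1.66 and CCND3 by 0.44 on the log2 scale, and CDKN1B, which encodes the p27 inhibitor, was higher by 0.82. The 3 measured ID genes, inhibitors of helix-loop-helix factors, were all higher: ID3 by 1.87, ID1 by 1.19 and ID2 by 0.60. ID3 read 4.75, 5.35 and 4.0 in vehicle and 6.89, 6.64 and 6.19 at the low dose. Coat subunits of vesicles between ER and Golgi were called lower in 8 of 17 with 0 higher (median -0.36, 2 lower without the block), led by SEC24D (-0.98) and SEC13 (-0.82). The TIMM and TOMM genes of mitochondrial protein import were called lower in 8 of 21, in 4 without the block, and higher in 1 (median -0.46), with TIMM23B (-1.15) and TIMM50 (-1.07) lowest. Subunits and assembly factors of complex I were called lower in 17 of 41 with 0 higher, and in 7 without the block.

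Genes called lower had a median span of 23.8 kb in the reference annotation, those called higher 38.4 kb and those not called 30.6 kb, and their median vehicle levels were 9.53, 7.97 and 8.29.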
